A study of Mus musculus with 6 samples.

Results

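The genes described here are 9 genes of mast cells and basophils, read in sorted tumor macrophages. They are *Cpa3*, *Mcpt4*, *Cma1*, *Tpsb2*, *Mcpt8*, *Fcer1a*, *Ms4a2*, *Kit* and *Gata2*, and they were chosen by symbol, as 9 of the 23424 genes in the count tables. All 9 passed the filter on low counts, as did 14645 genes in all. Bulk RNA-seq was performed on F4/80high and F4/80low tumor-associated macrophages (TAMs) sorted on day 21 from YUMM1.7 tumors, a mouse melanoma line injected into the skin. The hosts were female wild-type C57Bl/6J mice, untreated, and aged 8 weeks when tumors were induced. Each subset had 3 libraries, 1 from each of 3 independent experiments on pooled tumors, and replicates with the same number were taken to be from the same experiment. The sort took live CD45+ Lin- CD11b+ cells, and the flow cytometry antibodies listed in the methods included none against Kit or the IgE receptor. The batch used in the fit is the one drawn in the study's PCA plot of these libraries, with replicates 1 and 2 in 1 batch and replicate 3 in another.

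Mast cells mature in tissues from bone marrow progenitors, under the control of stem cell factor acting on its receptor Kit. They store heparin-bound proteases, the chymases, tryptases and carboxypeptidase A3, in granules, and release them when IgE on the high-affinity receptor FcεRI is cross-linked. Basophils circulate, carry FcεRI, keep little or no Kit when mature and hold their own granule protease, Mcpt8. The transcription factor Gata2 is needed for both lineages and is also used by blood stem and progenitor cells.

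The libraries held 16045281 to 43604373 counts in F4/80high and 16204810 to 32967733 in F4/80low, and replicate 3 was the shallowest of each subset. Levels are given as CPM (normalized read counts), scaled by the library total times its TMM factor. At this depth 3 counts, taken as the floor of detection, correspond to between 0.0553 and 0.325 CPM. The replicate 3 libraries stood apart from the others, with 89.3% and 89.9% of counts in protein-coding genes, where the other 4 had 97.2% to 97.9%. They also had 17.1% (F4/80high) and 16.1% (F4/80low) of counts in *Lars2*, *Gm23935* and *Gm15564*, where the others had 0.378% to 0.609%. The genes of the sort markers, *Ptprc* (CD45), *Itgam* (CD11b) and *Adgre1* (F4/80), and the macrophage receptor gene *Csf1r* were read in all 6 libraries. *Adgre1* had 259, 511 and 342 CPM in F4/80high against 230, 310 and 174 CPM in F4/80low, and its log2 fold change of 0.67 ± 0.30 (SE) did not pass the test (adjusted p = 0.664, edgeR's quasi-likelihood test). *Ptprc* lay between 658 and 2780 CPM.

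The promoters of the members were read because the list holds both a GATA factor and several genes that GATA factors are known to drive. RefSeq promoters, 250 bases before to 50 after the transcription start on GRCm38.p6, were found for 8 of the 9 genes, with a pair of entries each for *Kit* and *Gata2*. They were searched on both strands for AGATAA with its variant AGATAG and for TGATAA with its variant TGATAG, which are core letters read by GATA factors. The letters were found in 5 of the 8 genes. By promoter this was 5 of 10 entries, where 29.8% of all 32851 promoters of the same length hold them. The 5 promoters follow 5′ to 3′ on the strand of the gene, with the GATA letters in capitals.

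Cpa3 promoter, chr3:20242132-20242431 (-): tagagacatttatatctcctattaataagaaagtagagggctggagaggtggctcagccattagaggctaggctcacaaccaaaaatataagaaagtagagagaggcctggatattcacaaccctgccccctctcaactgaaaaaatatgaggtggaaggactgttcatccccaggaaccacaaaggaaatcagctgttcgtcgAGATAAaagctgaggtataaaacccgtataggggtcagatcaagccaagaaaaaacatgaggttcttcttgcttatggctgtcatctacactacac

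Mcpt4 promoter, chr14:56062261-56062560 (-): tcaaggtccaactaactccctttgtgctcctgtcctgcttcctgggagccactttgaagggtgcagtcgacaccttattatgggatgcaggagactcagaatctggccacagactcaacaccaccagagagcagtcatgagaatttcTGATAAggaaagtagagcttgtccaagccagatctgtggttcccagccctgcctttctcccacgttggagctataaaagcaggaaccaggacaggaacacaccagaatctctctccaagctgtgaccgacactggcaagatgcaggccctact

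Cma1 promoter, chr14:55944626-55944925 (-): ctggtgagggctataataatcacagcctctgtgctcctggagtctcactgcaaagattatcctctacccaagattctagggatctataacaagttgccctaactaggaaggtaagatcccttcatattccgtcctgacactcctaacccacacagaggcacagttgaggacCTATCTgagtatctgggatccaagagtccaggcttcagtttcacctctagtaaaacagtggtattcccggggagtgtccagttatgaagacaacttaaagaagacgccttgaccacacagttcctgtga

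Fcer1a promoter, chr1:173227180-173227479 (-): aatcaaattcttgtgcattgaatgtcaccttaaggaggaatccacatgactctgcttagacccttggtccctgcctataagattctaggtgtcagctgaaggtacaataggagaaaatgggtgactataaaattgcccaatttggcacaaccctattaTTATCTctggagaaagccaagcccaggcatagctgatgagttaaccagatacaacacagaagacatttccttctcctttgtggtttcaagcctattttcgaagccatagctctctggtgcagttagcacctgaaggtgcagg

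Ms4a2 promoter, chr19:11623670-11623969 (-): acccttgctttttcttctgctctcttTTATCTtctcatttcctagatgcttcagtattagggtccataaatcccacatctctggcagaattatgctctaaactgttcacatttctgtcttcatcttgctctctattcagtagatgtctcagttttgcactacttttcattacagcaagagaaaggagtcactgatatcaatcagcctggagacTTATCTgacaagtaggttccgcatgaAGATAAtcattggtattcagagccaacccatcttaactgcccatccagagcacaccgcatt

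The first base of the match lay at position -46 in *Cpa3*, -103 in *Mcpt4*, -79 in *Cma1* and -92 in *Fcer1a*, counted back from the transcription start. *Ms4a2* held 3 matches, at -224, -37 and -11. The windows of *Mcpt8*, *Kit* and *Gata2* held none of these letters. The E-box letters CACGTG and CATGTG, which Mitf reads, were in 1 of the 10 entries (*Fcer1a*) and in 20.4% of all promoters. A match gives letters in a window and no measurement of binding.

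No member passed the test between the subsets, but all 9 had a fitted level below that of F4/80low in F4/80high. The test was edgeR's quasi-likelihood test with terms for batch and subset, and a gene was called at a Benjamini-Hochberg adjusted p under 0.05 with an absolute log2 fold change above 1. It called 0 of 9 members, where the share called over all 14645 genes (percent called) was 0%. At an unadjusted p under 0.05 it had 1 member, *Gata2*, beside 1113 genes (7.6%), 633 of which (4.32%) had the higher level in F4/80low. DESeq2 with the same terms called 0 members and 148 genes (1.01%). The median log2 fold change of F4/80high over F4/80low was -0.97 over the members and 0.01 over all genes, of which 49.2% were below 0. In bulk libraries, fewer mast cells or basophils among the sorted cells and less RNA per cell cannot be told apart. The level was lower in F4/80high in 3 of 3 replicate pairs in 5 of the 9 members (55.6%), and in 15.9% of all genes. F4/80high and F4/80low did not overlap in 1 member, again *Gata2*, and every F4/80high library was below every F4/80low library in 2.9% of all genes.

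**Figure D1:**
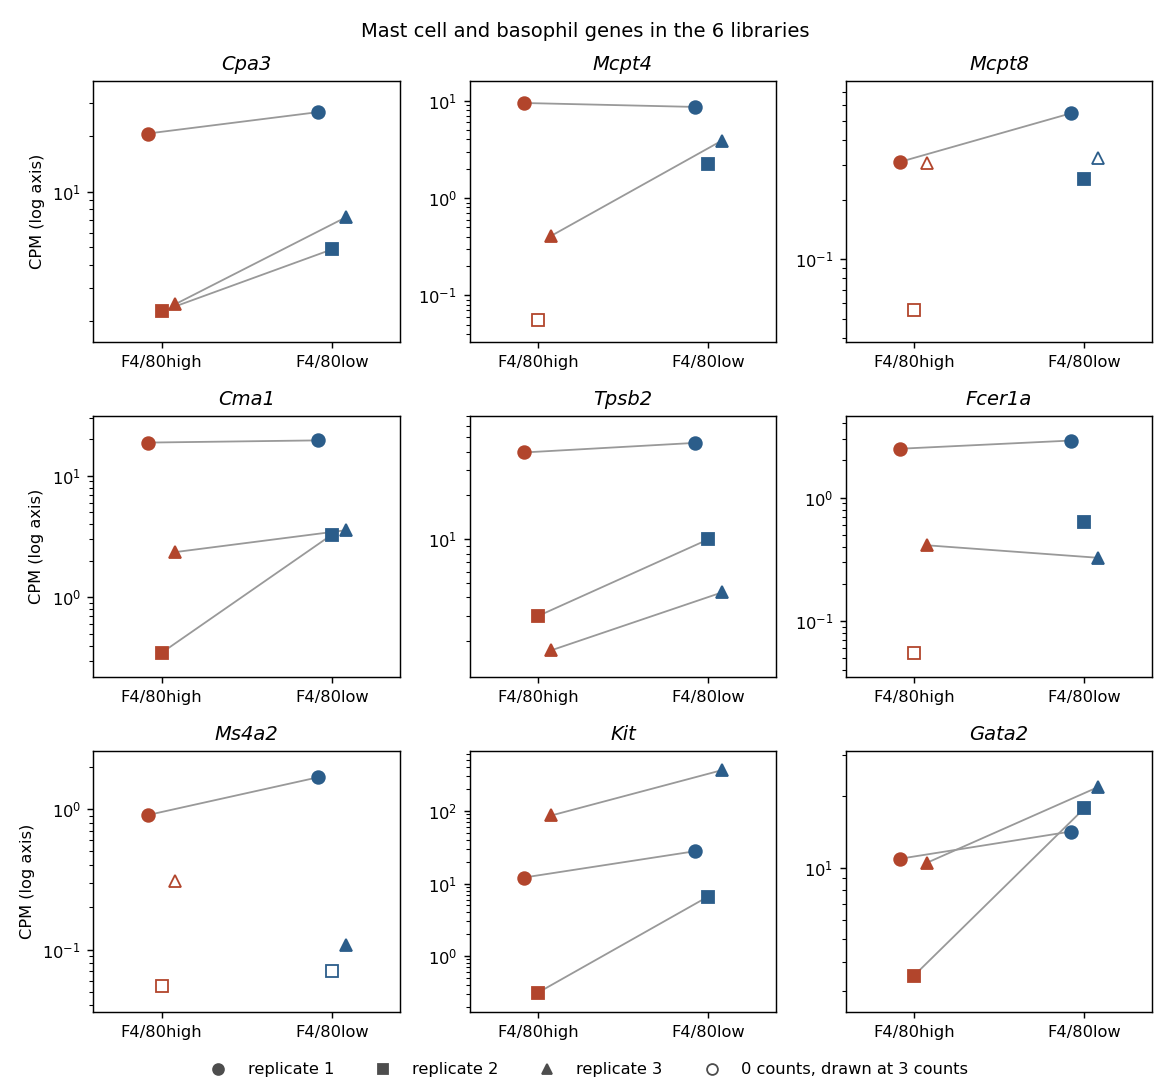
CPM of each of the 9 members in the 6 libraries, on a log axis, with F4/80high in red, F4/80low in blue, a marker shape for each replicate and a line joining the libraries of a replicate where both have counts. Open markers are libraries with 0 counts, drawn at 3 counts. In 7 of the 9 panels the replicate 1 libraries (circles) are the highest, and in the *Kit* panel those of replicate 3 (triangles).

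Among the granule proteases, *Cpa3* encodes carboxypeptidase A3, which trims peptides beside the chymases (chr3:20215620-20242181, minus strand, GRCm38). It had 860, 122 and 24 counts in F4/80high replicates 1, 2 and 3 against 1130, 209 and 67 in F4/80low. As CPM these were 20.6, 2.25 and 2.46 against 26.9, 4.87 and 7.25. The F4/80low library was the higher in each pair, yet replicate 1 of F4/80high was above replicates 2 and 3 of F4/80low, so that the groups overlapped. The ratio of F4/80low to F4/80high was 1.31 (95% counting interval 1.19 to 1.43), 2.17 (1.73 to 2.73) and 2.95 (1.82 to 4.91) in replicates 1, 2 and 3. The fitted log2 fold change of F4/80high over F4/80low was -0.80 ± 0.82 (SE, adjusted p = 0.835). Intervals cover counting error only, since reads without molecular identifiers are not independent molecules.

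*Tpsb2*, a tryptase of connective tissue mast cells (chr17:25366305-25369098, plus strand), had the highest mean level of the members per length. It had 1647, 162 and 17 counts in F4/80high against 1923, 430 and 40 in F4/80low, or 39.4, 2.98 and 1.74 against 45.8, 10 and 4.33 CPM. As for *Cpa3*, the replicate 1 libraries were far above the rest in both subsets. The ratio of F4/80low to F4/80high was 1.16 (1.09 to 1.24), 3.36 (2.80 to 4.05) and 2.48 (1.38 to 4.67), and the log2 fold change was -0.64 ± 0.84 (adjusted p = 0.888).

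The chymases *Cma1* and *Mcpt4* lie in the protease cluster of chromosome 14 (chr14:55941451-55944675 and chr14:56059629-56062313, both minus strand). *Cma1* had 785, 19 and 23 counts in F4/80high against 825, 141 and 33 in F4/80low. Its replicate 1 pair was level, with a ratio of 1.05 (0.947 to 1.15), and its replicate 2 pair differed by 9.39 (5.8 to 16.1). *Mcpt4*, the chymase closest to the human enzyme in its cutting, had 396, 0 and 4 counts in F4/80high against 363, 96 and 36 in F4/80low. It was at 0 in F4/80high replicate 2, the deepest library, where *Tpsb2* had 162 counts and *Cpa3* 122. Against the floor of 3 counts in that library, *Mcpt4* was 40.5-fold higher in F4/80low replicate 2, with a lower counting limit of 32.3. The replicate 1 ratio was 0.912 (0.788 to 1.05). The log2 fold changes were -0.36 ± 1.07 for *Cma1* (adjusted p = 0.958) and -0.97 ± 1.5 for *Mcpt4* (adjusted p = 0.908).

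*Mcpt8*, the granule protease of basophils (chr14:56082166-56085273, minus strand), was low throughout. It had 13, 0 and 0 counts in F4/80high against 23, 11 and 0 in F4/80low. The ratio in replicate 1 was 1.76 (0.855 to 3.78), so a difference was not detectable at this depth. In replicate 2 the level in F4/80low was 4.64-fold that of 3 counts in F4/80high, with a lower counting limit of 3.18. Its log2 fold change of -1.33 ± 2.20 had an adjusted p of 0.917.

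Of the IgE receptor genes, *Fcer1a* encodes the chain that binds IgE (chr1:173221284-173227214, minus strand) and *Ms4a2* the β chain that amplifies its signal (chr19:11615523-11623719, minus strand). *Fcer1a* had 104, 0 and 4 counts in F4/80high against 122, 27 and 3 in F4/80low. *Ms4a2* had 38, 0 and 0 counts in F4/80high against 71, 0 and 1 in F4/80low, so that it was above the floor in the replicate 1 libraries alone. The *Ms4a2* ratio there was 1.86 (1.24 to 2.83), and the *Fcer1a* ratio 1.17 (0.891 to 1.53). The log2 fold changes were -0.29 ± 1.5 for *Fcer1a* (adjusted p = 0.978) and -1.24 ± 2.19 for *Ms4a2* (adjusted p = 0.926). *Fcer1g*, the γ chain shared with the IgG receptors of macrophages, had 491 to 956 CPM in all 6 libraries.

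*Kit*, the receptor of stem cell factor (chr5:75574916-75656722, plus strand), differed from the proteases in where it was high. It had 504, 17 and 845 counts in F4/80high against 1169, 284 and 3366 in F4/80low, or 12.1, 0.313 and 86.6 against 27.8, 6.62 and 364 CPM. Both replicate 3 libraries were above all others, and F4/80high replicate 2 was the lowest. F4/80low was the higher in each pair, by 2.31 (2.08 to 2.57), 21.1 (13.0 to 36.8) and 4.20 (3.90 to 4.54). The log2 fold change was -1.68 ± 0.93 (adjusted p = 0.698), the most negative value in the list and at the 4.6th percentile of all genes. In a fit blocked on the experiment, which compares libraries of the same number, it was -2.32 ± 0.48 with an unadjusted p of 0.000934 and an adjusted p of 0.09. That fit called 76 genes (0.519%) and no member, and at an unadjusted p under 0.05 it had 4 members and 9.92% of all genes. DESeq2 with the same block, chosen after the data had been seen, called *Kit* (log2 fold change -2.42, adjusted p = 5.09e-07) and *Mcpt4* (-3.21, adjusted p = 0.0252). It called 354 of the 14645 genes. Without replicate 1 of both subsets, also chosen after seeing the data, edgeR called *Kit* alone of the members (-2.98, adjusted p = 1.29e-05) among 315 genes. Genes were filtered anew for that fit, and their share called is not given here.

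*Gata2* (chr6:88193891-88207032, plus strand) was the steadiest member. It had 457, 189 and 102 counts in F4/80high against 598, 763 and 202 in F4/80low, or 10.9, 3.48 and 10.5 against 14.2, 17.8 and 21.9 CPM. The means were 8.29 ± 4.17 CPM in F4/80high against 18.0 ± 3.81 CPM in F4/80low (SD, n = 3). Each F4/80high library was below each F4/80low library, and the ratios within pairs were 1.3 (1.15 to 1.47), 5.11 (4.35 to 6.02) and 2.09 (1.64 to 2.68). The log2 fold change of -1.12 ± 0.42 had an unadjusted p of 0.0255 and did not pass over all genes (adjusted p = 0.596).

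**Figure D2:**
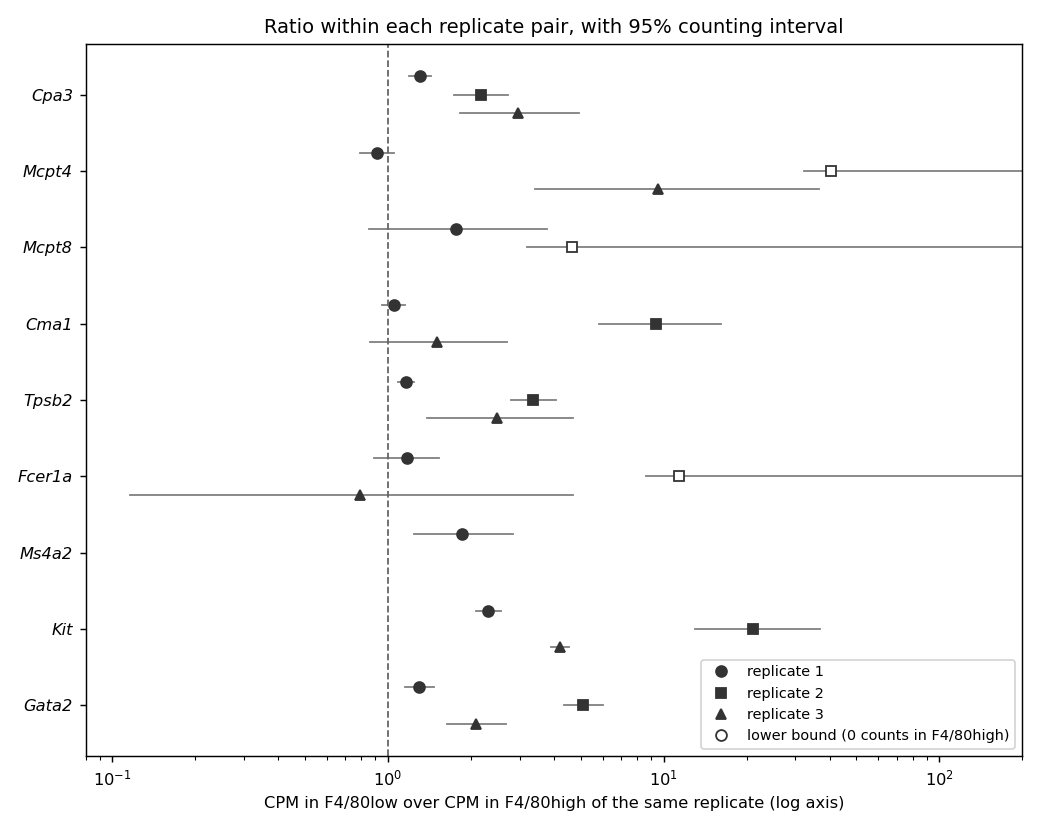
Ratio of CPM in F4/80low to CPM in F4/80high within each replicate pair, on a log axis, for the 24 of 27 pairs with more than 3 counts in either library. Bars are 95% counting intervals. Open markers, labelled as lower bounds, are ratios to 3 counts where F4/80high had 0 counts. Their bars start at the lower limit of the interval and run off the right edge. The interval lies above 1 in 18 pairs and below 1 in 0, and the share over all genes was not computed.

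Over the 9 members, 18 of 24 pair ratios had a counting interval above 1 and 0 had one below 1. The share over all genes was not computed, so this count is not set against a background. F4/80high replicate 2 was the lowest library in 8 of the 9 members, for *Mcpt8* and *Ms4a2* by a tie at 0. In that library 4 members were at 0, and the share of all genes lowest there was not computed. That library also had the highest summed level of the 9 macrophage markers, 22400 CPM, where the others had 5240 to 9940 CPM. Its part in the member levels was not tested. Leaving out that library gave positive log2 fold changes for *Cma1* (0.25) and *Fcer1a* (0.45). Leaving out F4/80low replicate 1 did so for *Cpa3* (0.04), *Cma1* (0.64), *Tpsb2* (0.14), *Fcer1a* (0.73) and *Ms4a2* (2.54). *Kit*, *Gata2*, *Mcpt4* and *Mcpt8* stayed below 0 whichever library was left out, with *Kit* between -3.74 and -1, *Gata2* between -1.71 and -0.76, *Mcpt4* between -5.81 and -0.20 and *Mcpt8* between -6.36 and -0.35.

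The experiment moved most members further than the subset did. Replicate 1 held the highest library in 7 of the 9 members, F4/80low in 6 and F4/80high in 1, where 26.6% of all tested genes are highest in replicate 1. F4/80low replicate 3 was the highest in 2 members, *Kit* and *Gata2*. Of all tested genes, 20.3% are highest in that library and 39.0% in either library of replicate 3. The mean CPM of the replicate 1 libraries exceeded that of replicate 2 by 6.67 for *Cpa3*, 6.55 for *Tpsb2*, 10.6 for *Cma1*, 8.10 for *Mcpt4* and 8.57 for *Fcer1a*. Over replicate 3 the ratios were 4.89, 14.0, 6.48, 4.21 and 7.34 in the same order, and with CPM of the plain library total they were 11.1, 31.9, 14.7, 9.75 and 16.4. *Kit* went the other way, since its mean in replicate 3 was 11.3 times that in replicate 1 and 65.0 times that in replicate 2, or 5 and 28.6 times by library total. *Gata2* means were 12.6, 10.6 and 16.2 CPM in replicates 1, 2 and 3.

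A test of the experiment in the block fit, with 2 degrees of freedom and chosen after the data had been seen, passed in 5 of the 9 members (55.6%) at an adjusted p under 0.05, and in 38.5% of all genes. They were *Cpa3* (0.00129), *Cma1* (0.00538), *Tpsb2* (0.000282), *Ms4a2* (0.0438) and *Kit* (0.000171). The other members had adjusted p-values of 0.0666 (*Mcpt4*), 0.171 (*Fcer1a*), 0.38 (*Mcpt8*) and 0.409 (*Gata2*). The batch term of the first fit passed in *Tpsb2* (log2 fold change of replicate 3 over replicates 1 and 2 of -3.09, adjusted p = 0.0405) and *Kit* (4.12, adjusted p = 0.00687). It passed in 42.6% of all genes, with a median of -0.35 over all genes. Among all genes *Kit* lay at percentile 97.3 of this fold change and *Tpsb2* at 7.2.

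**Figure D3:**
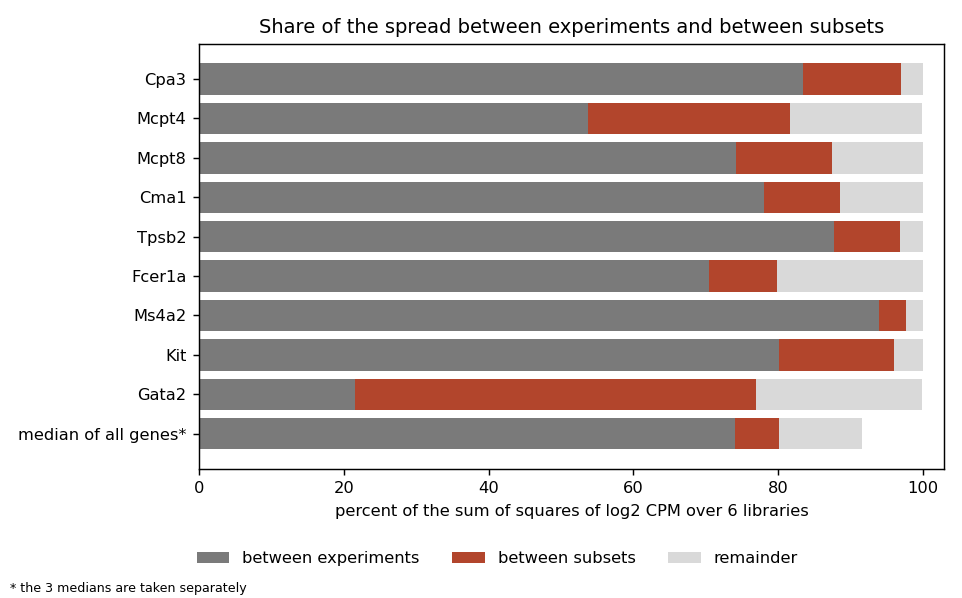
Share of the sum of squares of log2 CPM over the 6 libraries that lies between experiments (dark grey), between subsets (red) and in the remainder (light grey), for each member and, as 3 separate medians, for all tested genes. *Gata2* has 55.4% between subsets, where the other members have 3.78% to 27.9% and the median gene 5.99%.

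Of the spread of log2 CPM, 83.5% lay between experiments for *Cpa3*, 87.7% for *Tpsb2*, 93.9% for *Ms4a2*, 80.1% for *Kit* and 78.1% for *Cma1*, beside a median of 74.1% over all genes. *Mcpt8* had 74.2%, *Fcer1a* 70.5%, *Mcpt4* 53.7% and *Gata2* 21.5%, so the members lay on both sides of that median. The SD of log2 CPM was 3.41 for *Kit* and 2.83 for *Mcpt4*, at the 99.7th and 98.8th percentiles of all genes, and 0.924 for *Gata2*, at the 54.0th.

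The protease and IgE receptor genes varied together over the 6 libraries, as did some markers of other cell types. *Kit* and *Gata2* varied with each other more than with most of the other members. Over the 36 pairs of members, the median Pearson's r of log2 CPM was 0.79, with a range from -0.09 to 0.99. Over the 21 pairs among the 7 genes other than *Kit* and *Gata2* the median was 0.86 and the lowest 0.71. This split was chosen after the data had been seen, and leaving out members with low r raises the median. For all pairs of tested genes the median was 0.02, with 11.9% at 0.79 or above and 7.63% at 0.86 or above. These are descriptions of 6 libraries from 3 experiments, which share depth and batch. Some markers of other cell types were as close to *Cpa3* as members were, with 0.94 for *Pdgfrb*, 0.93 for *Col3a1*, 0.92 for *Cd209a* and 0.89 for *S100a9*. Others were not, with 0.03 for *Col1a2* and 0.05 for *Dcn*. For *Kit*, *Gata2* ranked 1639 of 13171 genes, below *Col1a2* (0.97) and *Ptprc* (0.91), and *Cd68* had -0.99. *Cma1* and *Fcer1a* were the closest pair (0.99), and *Cpa3* had 0.94 with *Tpsb2* and 0.92 with *Cma1*. It had 0.96 with *Ms4a2*, which was above the floor in the replicate 1 libraries alone. *Kit* had 0.80 with *Gata2*, 0.57 with *Mcpt4*, 0.27 with *Cpa3*, -0.03 with *Tpsb2* and -0.09 with *Mcpt8*. *Gata2* had 0.80 with *Mcpt4* too, 0.62 with *Cma1* and 0.61 with *Fcer1a*. With the rest *Gata2* had from 0.26 (*Ms4a2*) to 0.46 (*Cpa3*). With the difference between batches removed the median over the 36 pairs was 0.92. Without replicate 1 of both subsets it was 0.60, and 0.55 over the 21 pairs with a lowest value of -0.33. Part of the likeness thus rested on the 2 libraries of that experiment.

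**Figure D4:**
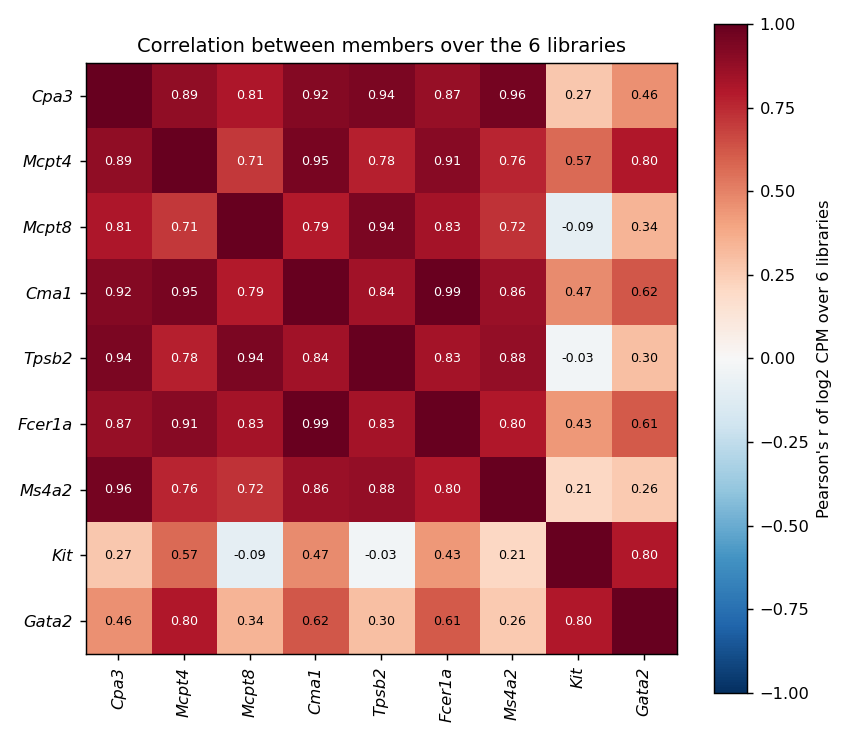
Pearson's r of log2 CPM over the 6 libraries for each pair of the 9 members, from -1 (blue) to 1 (red). The 7 protease and IgE receptor genes form a block at 0.71 to 0.99. *Kit* and *Gata2* have 0.80 between them, and *Gata2* also has 0.80 with *Mcpt4*.

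Levels relative to *Cpa3* within a library do not depend on its depth or scaling. Per length, *Tpsb2* was 2.69 and 2.39 times *Cpa3* in the F4/80high and F4/80low libraries of replicate 1, *Cma1* 1.29 and 1.03 times, and *Mcpt4* 0.706 and 0.492 times. In replicate 3 *Tpsb2* was 0.994 (0.501 to 1.93) and 0.838 (0.552 to 1.26) times *Cpa3*, below its replicate 1 intervals in both subsets. F4/80high replicate 2 had a makeup of its own, with *Cma1* at 0.220 (0.128 to 0.358) of *Cpa3* and *Mcpt4* at 0 (upper limit 0.047), where F4/80low replicate 2 had 0.953 (0.764 to 1.19) and 0.704 (0.547 to 0.9). *Kit* per *Cpa3* was 0.0998 and 0.176 in replicate 1, 0.0237 and 0.231 in replicate 2, and 5.99 (4 to 9.41) and 8.55 (6.72 to 11.1) in replicate 3. The *Kit* counts of replicate 3 thus came without a matching rise of *Cpa3*, *Cma1*, *Tpsb2* or *Mcpt4* in the same libraries.

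**Figure D5:**
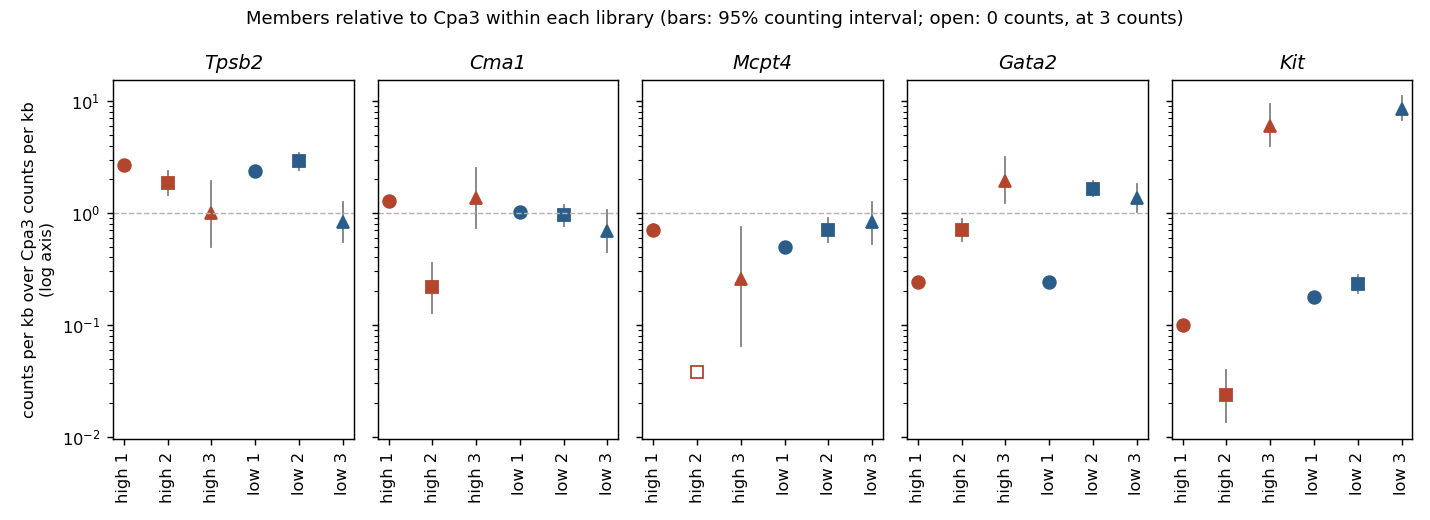
Counts per kilobase of 5 members divided by those of *Cpa3* in the same library, on a log axis, with F4/80high in red, F4/80low in blue, 95% counting intervals as bars and an open marker at 3 counts where a member had 0. *Kit* lies between 0.0237 and 0.231 in replicates 1 and 2 and at 5.99 and 8.55 in replicate 3, and *Tpsb2* stays between 0.838 and 2.89 in all 6 libraries.

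Ordered by mean CPM per kilobase over the 6 libraries, the members ran from *Tpsb2* (16.1) through *Kit* (9.31), *Cma1* (7.45), *Cpa3* (7.06), *Mcpt4* (4.15), *Gata2* (3.92) and *Fcer1a* (1.13) to *Mcpt8* (0.217) and *Ms4a2* (0.160). The order was not that of each library. *Tpsb2* led in all 4 libraries of replicates 1 and 2, with 2.76 to 42.3 CPM per kilobase, and *Kit* led in both of replicate 3, with 9.72 and 40.9. *Cma1* and *Cpa3* were next to each other and did not differ beyond their spread, with *Cma1* the higher in 3 libraries and *Cpa3* in the other 3. On this scale *Adgre1* had 53.6 to 158, more than any member in any library.

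The genes whose log2 CPM was most like that of *Cpa3* among 13164 genes with at least 60 counts were *Gbp9* (0.99), *Brsk2* (0.99), *Gpc3* (0.99), *Atoh8* (0.99) and *Amica1* (0.98). *Gpc3* had 307, 8 and 4 counts in F4/80high against 541, 38 and 12 in F4/80low, a pattern high in replicate 1 as that of *Cpa3*. Closest to *Mcpt8* were *Mpo*, *H2-Oa*, *Fv1*, *BC100530* and *Prss34* (all 0.99). *Mpo*, the myeloperoxidase of neutrophil precursors, had 37, 0 and 0 counts against 46, 30 and 0, and *Prss34*, another basophil protease, had 18, 0 and 0 against 80, 25 and 0. Closest to *Kit* were *Slc14a1*, *Selp*, *Cdc42bpg*, *Fpr2* and *Slfn8* (all 0.99). With 6 libraries such values are common, and 112, 312 and 569 genes exceeded 0.9 with *Cpa3*, *Mcpt8* and *Kit*.

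Of 62 further genes of the mast cell and basophil lists, 0 were called, 37 had a fitted level lower in F4/80high, and 13 (21.0%) had an unadjusted p under 0.05, beside 7.6% of all genes, with 9 of the 13 lower in F4/80high. The lists below include the members that belong to them. The mast cell granule list, which holds the proteases together with genes for histamine, serotonin and proteoglycan storage, had 12 of 13 genes below 0 with a median of -0.61. *Mcpt2*, *Tpsab1* and *Tpsg1* followed the members, and *Tpsab1*, the other mast cell tryptase, had 212, 2 and 2 counts in F4/80high against 266, 28 and 10 in F4/80low. *Hdc* and *Srgn*, which other myeloid cells also use, had means of 33.1 and 922 CPM per kilobase, above the 16.1 of *Tpsb2*, the highest of the members. *Hdc*, which makes histamine, had 127, 30.1 and 222 CPM in F4/80high against 386, 58.8 and 442 CPM in F4/80low (-1.33 ± 0.67, adjusted p = 0.692). *Srgn*, the core protein that binds granule proteases, had 1850, 1740 and 1180 against 2560, 2540 and 2280 CPM (-0.65 ± 0.22, adjusted p = 0.525). *Slc18a2*, which loads monoamines into granules, had 3.78, 3.19 and 326 against 5.59, 5.04 and 422 CPM and so was, like *Kit*, highest in replicate 3.

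On the list of surface and lipid mediator genes, 6 of 11 were below 0 with a median of -0.29. *Hpgds*, the prostaglandin D synthase, had 63.0, 140 and 120 CPM in F4/80high against 12.7, 44.8 and 11 in F4/80low (2.33 ± 0.55, adjusted p = 0.44). The block called it (2.43, adjusted p = 0.03), as did DESeq2 with the batch term (adjusted p = 0.00294). *Alox5*, the 5-lipoxygenase, had 71.0, 111 and 37.5 against 162, 182 and 93.6 CPM (-1.05 ± 0.25, adjusted p = 0.44, and 0.0254 by DESeq2). *Il1rl1*, the IL-33 receptor, had 34.6 to 85.5 CPM in the 6 libraries and a log2 fold change of -0.40 ± 0.27 (adjusted p = 0.735).

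The basophil list had 9 of 11 genes below 0 with a median of -0.84. Its leading gene, *Ccr3*, the eotaxin receptor, is shared with eosinophils, and had 71.5, 35.2 and 75.6 against 132, 261 and 170 CPM (-1.65 ± 0.36, adjusted p = 0.44, and 0.00403 by DESeq2). *Il4* had 8.64, 3.98 and 8.10 against 11.1, 21.3 and 6.49 CPM, with groups that overlapped (-0.84 ± 0.50, adjusted p = 0.711). *Prss34*, which among these genes is the most restricted to basophils beside *Mcpt8*, was at 0 in 3 libraries.

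Among the lineage transcription factors, 8 of 12 were below 0 with a median of -0.33. *Gata1*, which follows Gata2 in mast cells and drives the eosinophil and erythroid lineages, had 9.84, 4.6 and 1.64 CPM in F4/80high against 14.7, 29.0 and 5.95 in F4/80low (-1.67 ± 0.42, adjusted p = 0.441, and 0.0337 by DESeq2). *Cebpa*, which directs granulocyte and monocyte fates, had 45.6, 74.7 and 202 against 28.2, 25.9 and 93.7 CPM (1.14 ± 0.25, adjusted p = 0.44, and 0.0101 by DESeq2). *Mitf*, used by mast cells, macrophages and melanocytes, had 15.6, 20.4 and 158 against 12.6, 10.8 and 98.7 CPM (0.64 ± 0.23, adjusted p = 0.553).

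The genes of FcεRI and Kit signalling, which most leukocytes use, were split, with 8 of 16 below 0 and a median of 0.01. The lowest p-values were those of the kinases *Btk* (-0.81 ± 0.21, adjusted p = 0.461) and *Syk* (-0.78 ± 0.30, adjusted p = 0.602). Of the ligands and growth factors, 6 of 6 were below 0 with a median of -0.65. *Kitl*, which encodes stem cell factor, had 3.88, 2.47 and 9.95 CPM in F4/80high against 5.5, 6.6 and 25.5 in F4/80low (-1.07 ± 0.35, adjusted p = 0.525), and *Il33* had a log2 fold change of -0.77 ± 0.47 (adjusted p = 0.713). The chymase cluster of chromosome 14 also holds the granzymes of cytotoxic lymphocytes, and its 12 genes were all highest in replicate 1. Only 5 of the 12 were below 0, and *Gzmb* had 526, 148 and 91.0 CPM in F4/80high against 192, 246 and 40.3 in F4/80low (0.80 ± 0.41, adjusted p = 0.696). The tryptase cluster had 4 of 4 below 0 with a median of -0.77.

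Markers of several other cell types also had lower fitted levels in F4/80high, and their part in the member levels was not tested. Over the libraries they did not all follow the members. Of the 8 eosinophil genes 1 was highest in replicate 1, and of the 8 neutrophil genes 7 were. All 8 eosinophil genes had a level lower in F4/80high, with a median of -1.58 and a summed level of 166 to 496 CPM in F4/80high against 367 to 1420 CPM in F4/80low. All 8 neutrophil genes did so too, with a median of -1.32, 628 to 1770 CPM in F4/80high against 1310 to 3830 CPM in F4/80low. Some of these markers passed where no member did, with 5 neutrophil and 0 eosinophil genes called by the edgeR block and 3 neutrophil and 4 eosinophil genes by DESeq2 with the batch term. Of the hematopoietic progenitor genes, which share *Kit* and *Gata2* expression with mast cells, 6 of 7 were below 0 with a median of -1.33, and the summed level was 18.5 to 72.1 CPM against 80.6 to 179 CPM, with *Hoxa9* at the floor in all libraries. *Cd34* had 26.8, 12.0 and 20.0 CPM in F4/80high against 46.7, 58.6 and 44.4 in F4/80low (-1.35 ± 0.32, adjusted p = 0.44, and 0.0191 by DESeq2). The fibroblast list had 7 of 8 genes below 0 (436 to 1480 CPM against 1020 to 1810 CPM), and the dendritic cell list 7 of 8 (71.4 to 284 CPM against 133 to 484 CPM). The T, NK and innate lymphoid list had 0 of 8 below 0, with 303 to 940 CPM in F4/80high against 205 to 443 CPM in F4/80low. Of the 4 melanoma and melanocyte genes in the tables, *Mlana* was at the floor in all libraries and the sum, led by *Mitf*, was 18.5 to 159 CPM against 12.5 to 100 CPM. The endothelial list had 3 of 6 below 0 (5.32 to 42.2 CPM against 2.91 to 18.4 CPM), with *Tek* at the floor, and the 5 keratinocyte genes in the tables summed to at most 2.40 CPM in any library.

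Summed over the 9 members, the level was 115, 9.38 and 104 CPM in F4/80high replicates 1, 2 and 3 against 148, 45.7 and 405 CPM in F4/80low, or 76.3 ± 58.2 against 200 ± 185 CPM (SD, n = 3). The groups overlapped, and F4/80low was the higher in each pair. *Kit* made up most of the sum in replicate 3. Without *Kit* and *Gata2*, a choice made after the data had been seen, the sums were 92.0, 5.58 and 7.38 CPM against 106, 21.3 and 19.5 CPM. The 7 protease and IgE receptor genes together were thus again lower in F4/80high in each pair and highest in replicate 1.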

How the data were processed

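Bulk RNA-seq of 6 libraries was analysed. The authors deposited raw read counts for 23424 genes per library, with gene length and no normalization. Aligner, counting rule and strand are not given in the sources used here, and 99.4% of IDs matched GENCODE M21 (GRCm38). Genes of the protein-coding biotype that reached 10 counts in sum were tested with edgeR 4.0.16 (R 4.3.3, quasi-likelihood, TMM, batch and subset terms, Benjamini-Hochberg adjustment). The alternatives included DESeq2 1.42.0, a replicate block and leaving out each library, and the fit was tested on simulated data. CPM use the library total times the TMM factor, which was 0.570 and 0.608 in replicate 3 and 1.25 to 1.38 in the others. Log2 CPM for r used a prior count of 2, and r carries no p.

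Same-numbered libraries were paired, since the study lists a sort of both subsets under each sample number. Their deviations from the group means correlated (0.746, 0.732 and 0.908 over 9979 genes). Libraries of different numbers were not compared in this way. Replicate 3 also stood apart in both subsets, so these values do not decide the pairing.

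The members, lists and tests were chosen with earlier results of these data known. Named genes were the members, up to 3 per list and direction by p and 3 by level, from which a selection is printed, and the 5 most like *Cpa3*, *Mcpt8* and *Kit*. Of the members' transcripts, at most 0.567% of 100-base stretches (*Ms4a2*) and 5.48% of 50-base stretches (*Mcpt4*) occur in transcripts of another gene. *Cma2*, *Mcpt9*, *Mrgprb2* and 12 other list genes were not analysed here.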

Additional observations from a re-analysis of the deposited data

How the results depend on the processing

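Calls between the subsets depended on the model, and the cause was not tested. The number of genes called was 0 under edgeR with the batch term, 76 with the replicate block in place of the batch and 148 under DESeq2 with the batch. It was 354 of 14645 under DESeq2 with the block and 315, on genes filtered anew, without replicate 1 of both subsets. Both were chosen after the data had been seen. It was 0 to 57 when single libraries were left out, with 57 without F4/80high replicate 1. Members called were 0 except under DESeq2 with the block (2) and without replicate 1 of both subsets (1). Genes called in the wider lists were 5 under DESeq2 with the batch, 1 with the edgeR replicate block, 8 under DESeq2 with the block, 5 without replicate 1 and 0 to 1 leaving out single libraries. The pairing by experiment moved the median member log2 fold change from -0.97 to -1.29 and changed no member's call in edgeR.

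The median member log2 fold change was -3.54 at the lowest, without F4/80high replicate 1, and 0.04 at the highest, when F4/80low replicate 1 was left out, and -2.31 without replicate 1 of both. Single members turned above 0 in 7 cases, 5 of them without F4/80low replicate 1 and 2 (*Cma1* 0.25, *Fcer1a* 0.45) when the library left out was F4/80high replicate 2. The ranges over single libraries left out were -2.31 to 0.04 for *Cpa3*, -3.02 to 0.64 for *Cma1*, -2.51 to 0.14 for *Tpsb2*, -3.54 to 0.73 for *Fcer1a* and -7.48 to 2.54 for *Ms4a2*. The median r was 0.72 to 0.85 leaving out single libraries, 0.92 with the batch difference removed and 0.60 without replicate 1 of both. Depth limits *Mcpt8*, *Ms4a2* and *Fcer1a*, which were at or under 3 counts in 3, 4 and 2 libraries.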
